A study of Mus musculus with 8 samples.

Results

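RNase P and RNase MRP are a pair of related ribonucleoproteins, and the 10 protein subunits examined here are Pop1, Pop4, Pop5, Pop7, Rpp14, Rpp21, Rpp25, Rpp30, Rpp38 and Rpp40. They were chosen by the normalized intensities of Pop4, which had shown one of the largest falls between BTBR and B6 hippocampus in these same arrays, and the question was whether that fall is alone in its complex. Every non-control probe carrying one of the 10 gene names was taken, which gave 15 probes of the 41174 non-control probes (27373 gene names) on the array. The Pop4 values therefore chose the set and are given as a description without a test, whereas the other 9 genes, with 13 probes, were tested.

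Hippocampal RNA came from 4 BTBR mice (genotype BTBR T+ Itpr3tf/J) and 4 B6 mice (C57BL/6J, wild type), and each mouse was hybridized to 1 single-color Agilent array. All 8 mice were labeled male and 5 months old, none was treated, and the tissue was the whole hippocampus. BTBR is an inbred strain used as a model of idiopathic autism, so the groups differ across the genome and not at a single allele, and the labels list C57BL/6J as strain background for the BTBR samples as well. Replicates 1 and 2 of both strains sat on slide 1, and replicates 3 and 4 on slide 2.

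RNase P removes the leader from the 5′ end of tRNA precursors, and RNase MRP cuts the ribosomal RNA precursor in the nucleolus. Each is built around its own RNA, and most of the protein subunits are shared by both enzymes. Cells need both activities for protein synthesis, and the subunit genes are broadly transcribed.

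The answer from the arrays was that Pop4 was not the only subunit with less signal in BTBR. The signal of Rpp25 was also lower in BTBR, by 1.42 on the log2 scale (2.68-fold). Rpp25 was the only gene of the other 9 that passed the test, at 1 of their 13 probes (7.69%, against 7.60% of all 27999 probes tested). The remaining 8 genes, Pop1, Pop5, Pop7, Rpp14, Rpp21, Rpp30, Rpp38 and Rpp40, had 12 probes with differences between -0.12 and 0.08, and none was called. The values below are normalized log2 intensity, that is, mean spot intensity minus local background plus 50, quantile normalized across the 8 arrays and summarized over replicate spots.

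The 3 probes that carry these differences are shown by their first 30 bases of 60, written 5′ to 3′ in lower case as the array files list them, because the result for each gene rests on what these short stretches bind. Coordinates are those of the files, on mm9, which is a B6 genome.
Pop4 probe A_52_P206492, chr7:39047984-39048043, minus strand: gctaggggtaaatatttgtactgttaggtg
Pop4 probe A_51_P125117, chr7:39048106-39048165, minus strand: tgacactgaagaactggaaactccctaaat
Rpp25 probe A_51_P104392, chr9:57353026-57353085, plus strand: taactgagagcgggagctacggagctgatt

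The 2 Pop4 probes are annotated to the same transcript (NM_025390) and lie 62 bases apart, with A_52_P206492 the more downstream one on the minus strand. No BTBR sequence was used here, so weaker binding of BTBR transcript to a probe designed on B6 sequence and less transcript cannot be told apart. Likewise, in bulk hippocampus fewer cells of a type and less RNA per cell cannot be told apart.

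Pop4, also known as Rpp29, is a subunit that binds the RNA of the enzyme. Its probe A_52_P206492 read 13.17, 13.08, 12.96 and 13.03 in B6 replicates 1 to 4. The same probe read 8.43, 8.49, 8.45 and 8.40 in BTBR replicates 1 to 4. All 4 BTBR arrays lay far below all 4 B6 arrays, and the arrays within a strain were close to each other.

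The means of this probe were 13.06 ± 0.09 in B6 and 8.44 ± 0.04 in BTBR (SD, n = 4 each). The difference was -4.61, or 24.5-fold lower in BTBR, and only 4 of the 27999 probes tested had a lower one. The size moved with the processing, from -5.84 with the processed signal of the scanner software to -4.15 in the deposited matrix. The BTBR signal was still well above background on all 4 arrays, with mean spot intensities of 306 to 392 over a local background of 45 to 53. The B6 spots read 7564 to 9820.

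The other Pop4 probe, A_51_P125117, was lower in BTBR as well, by much less. It read 12.38, 12.58, 12.41 and 12.47 in B6 and 11.23, 11.20, 11.18 and 11.17 in BTBR. Its mean was 12.46 ± 0.09 in B6 and 11.19 ± 0.03 in BTBR (SD, n = 4 each), a difference of -1.27 or 2.41-fold lower. Again no BTBR array reached any B6 array.

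The probes of Pop4 thus gave the same direction and different sizes. Within each B6 array A_52_P206492 minus A_51_P125117 was 0.79, 0.50, 0.55 and 0.56, and within each BTBR array it was -2.80, -2.70, -2.73 and -2.77. The mean gap was 0.60 ± 0.13 in B6 and -2.75 ± 0.04 in BTBR (SD, n = 4 each), so the signals 62 bases apart in one transcript changed unequally between the strains. On slide 1 and slide 2 the difference of A_52_P206492 was -4.66 and -4.57, and that of A_51_P125117 was -1.27 on both.

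**Figure D1:**
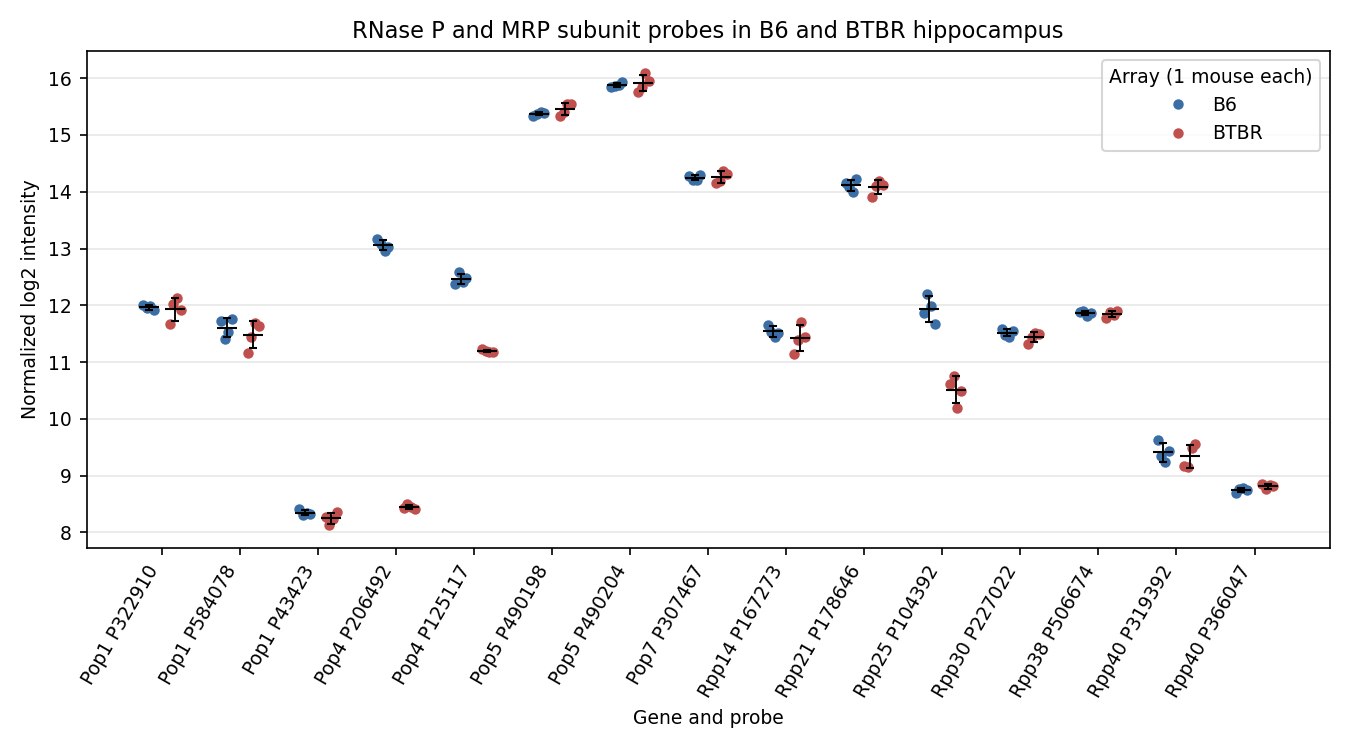
Normalized log2 intensity (y axis) of the 15 subunit probes (x axis) on each array, with B6 in blue, BTBR in red and bars for mean ± SD of 4 mice. Both Pop4 probes and the Rpp25 probe have all BTBR arrays below all B6 arrays, and the strains overlap at the other 12 probes.

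Rpp25 forms a heterodimer with Pop7 (Rpp20), and both proteins belong to the Alba family of nucleic acid binding proteins. The Rpp25 probe (NM_133982) read 11.86, 12.21, 11.99 and 11.67 in B6. It read 10.61, 10.75, 10.19 and 10.50 in BTBR. The highest BTBR array was below the lowest B6 array, although the spread within each strain was wider than for Pop4.

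The mean of Rpp25 was 11.93 ± 0.22 in B6 and 10.51 ± 0.24 in BTBR (SD, n = 4 each). The difference of -1.42 had a standard error of 0.14 and a 95% interval from -1.75 to -1.09, and its adjusted p with limma, over all 27999 probes, was 3.15e-04. An exact two-sided permutation test of the 8 arrays gave p = 0.0286, which is the smallest p that 4 against 4 allows. The rank product, the non-parametric method of the study, called it as well, with a percentage of false prediction (pfp) of 2.22e-04. The difference was -1.35 within slide 1 and -1.49 within slide 2.

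Rpp25 was therefore 1 probe called of the 13 tested for the 9 genes, or 7.69%, against 7.60% of all 27999 probes called by limma (4.30% lower and 3.30% higher in BTBR). The share of called probes among the 9 genes was thus near that of the whole array. By rank product 1 of 13 was called against 3.93% of all probes (2.30% lower and 1.63% higher). Arrays of the strains did not overlap at 1 of 13, against 14.2% of all probes (7.26% lower and 6.91% higher). No probe of the 9 genes was higher in BTBR by either test. At an unadjusted p under 0.05 the count was also 1, against 18.5% of all probes.

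Pop7, the partner of Rpp25, was not called. Its probe (NM_028753, chr5:137942827-137942886, minus strand) read 14.27, 14.21, 14.21 and 14.30 in B6 and 14.15, 14.19, 14.37 and 14.32 in BTBR. The strains overlapped, and the difference was 0.01 with a 95% interval from -0.15 to 0.17 (limma adjusted p = 0.96). Rpp25l, a paralog of Rpp25, was measured by 2 probes, with differences of -0.05 (limma adjusted p = 0.79) and 0.01 (limma adjusted p = 0.96).

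**Figure D2:**
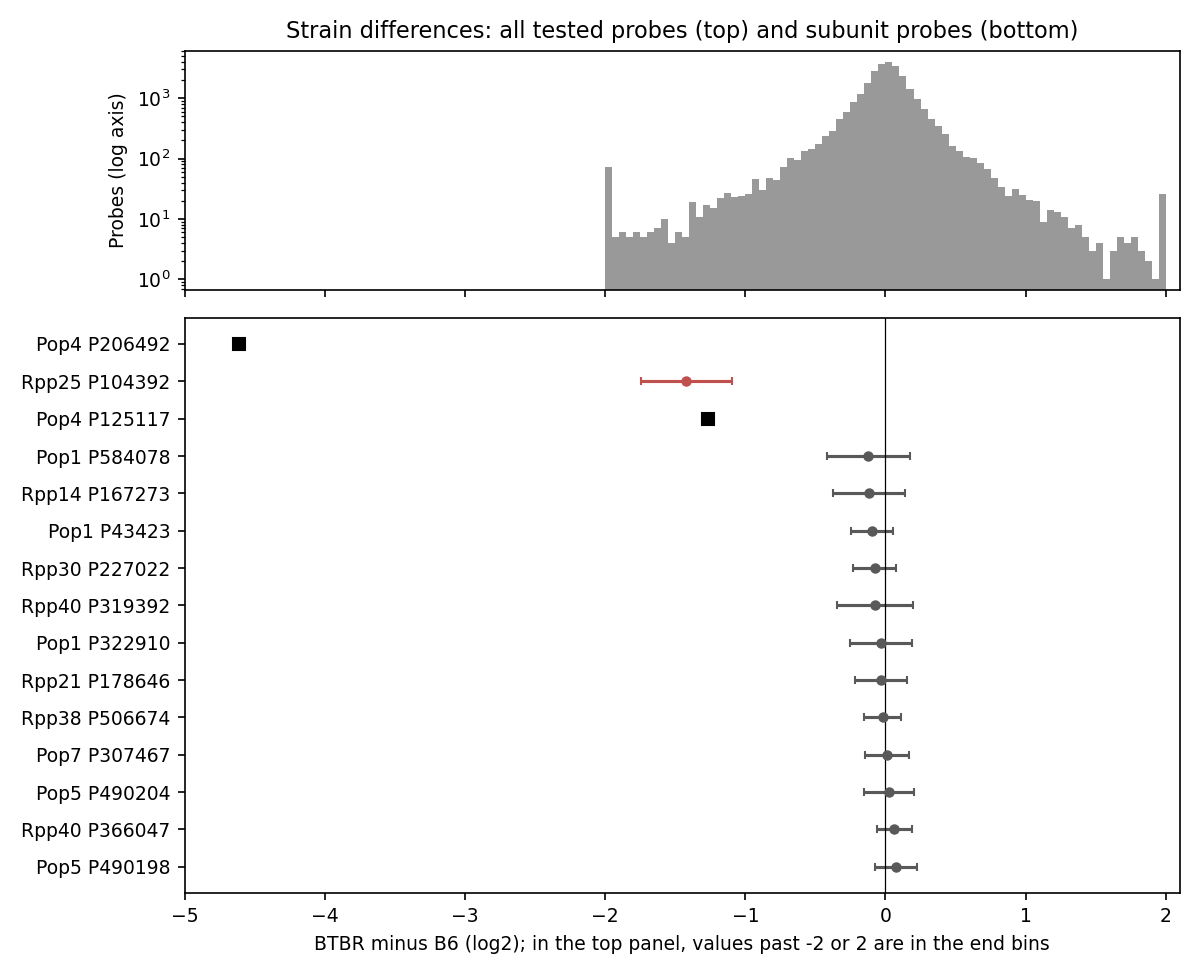
BTBR minus B6 difference on the log2 scale (x axis), for all 27999 probes as a histogram with a log count axis (top) and for each subunit probe (bottom). Points are limma estimates with 95% intervals, the red point is Rpp25, and the black squares are the Pop4 probes, drawn without an interval because they chose the set. The other 12 probes have intervals that include 0.

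Pop1 is the largest protein of the complex and a scaffold for the RNA. It was measured by 3 probes on chromosome 15, and A_51_P322910 (AK016547, chr15:34460305-34460364) and A_52_P584078 (NM_152894, chr15:34460325-34460384) overlap by 40 bases, of which 36 are identical, so they are not independent measurements. A_51_P322910 read 12.01, 11.95, 11.98 and 11.91 in B6 and 11.66, 12.03, 12.12 and 11.91 in BTBR. The B6 values lay within the BTBR range, with a difference of -0.03 and a 95% interval from -0.25 to 0.19 (limma adjusted p = 0.91).

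The overlapping Pop1 probe A_52_P584078 read 11.73, 11.40, 11.54 and 11.76 in B6 and 11.16, 11.45, 11.68 and 11.64 in BTBR, with a difference of -0.12 and an interval from -0.42 to 0.17 (limma adjusted p = 0.70). The third Pop1 probe, A_52_P43423 (AK034063, chr15:34461259-34461318), gave 8.41, 8.31, 8.35 and 8.32 in B6 and 8.27, 8.13, 8.24 and 8.35 in BTBR. Its difference was -0.10 with an interval from -0.25 to 0.05 (limma adjusted p = 0.50). The strains overlapped at all 3 probes.

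Pop5 and Rpp14 are related in sequence to each other. Pop5 had 2 probes for NM_026398, of which A_51_P490198 (chr5:115690736-115690795) read 15.34 to 15.40 in B6 and 15.33 to 15.54 in BTBR. A_51_P490204 (chr5:115690908-115690967) read 15.85 to 15.94 in B6 and 15.76 to 16.09 in BTBR. The differences of these probes, which lie 112 bases apart, were 0.08 (interval -0.08 to 0.23, limma adjusted p = 0.63) and 0.03 (limma adjusted p = 0.90).

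Rpp14 had 1 probe (AK016631, chr14:8924219-8924278), which read 11.66, 11.53, 11.44 and 11.52 in B6 and 11.15, 11.39, 11.71 and 11.44 in BTBR. BTBR held both the lowest and the highest of the 8 values, and the difference was -0.12 with an interval from -0.37 to 0.14 (limma adjusted p = 0.67).

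Rpp30 pairs with Pop5 in the related archaeal enzyme, and Rpp38 belongs to the L7Ae family of RNA binding proteins. The Rpp30 probe (NM_019428), whose 60 bases are spread over 1004 bases of the genome (chr19:36175319-36176322) and so span an intron, read 11.45 to 11.58 in B6 and 11.31 to 11.51 in BTBR. Its difference was -0.08 with an interval from -0.23 to 0.08 (limma adjusted p = 0.63). The Rpp38 probe (NM_001013376, chr2:3246440-3246499, minus strand) read 11.82 to 11.91 in B6 and 11.78 to 11.91 in BTBR, with a difference of -0.02 and an interval from -0.15 to 0.11 (limma adjusted p = 0.90).

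Rpp21 is a subunit of RNase P whose gene lies in the major histocompatibility region of chromosome 17, where inbred strains carry different haplotypes. Its probe (NM_026308, chr17:36392635-36392694, minus strand) read 14.15, 14.09, 13.99 and 14.22 in B6 and 13.91, 14.10, 14.19 and 14.13 in BTBR. The strains overlapped, and the difference was -0.03 with an interval from -0.22 to 0.15 (limma adjusted p = 0.89).

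Rpp40 is a further subunit of the complex and had 2 probes on chromosome 13, on the minus strand. A_51_P319392 (ENSMUST00000171686, chr13:35985465-35985524) read 9.24 to 9.63 in B6 and 9.16 to 9.55 in BTBR, with a difference of -0.07 (interval -0.35 to 0.20, limma adjusted p = 0.81). A_52_P366047 (NM_145938), spread over 641 bases (chr13:35993254-35993894), read 8.69, 8.77, 8.78 and 8.75 in B6 and 8.85, 8.76, 8.83 and 8.81 in BTBR. Its difference was 0.06 (interval -0.06 to 0.19, limma adjusted p = 0.63), and with an exact permutation p of 0.0857 it had the lowest exact p among the 12 probes.

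All 13 probes of the 9 genes were well above background on all 8 arrays, so that each of these values is a measured level and not a bound. The intervals of the 12 probes that were not called lay between -0.42 and 0.23, so they include no change larger than 1.34-fold in either direction. Of these 12 differences 8 were below 0 and 4 above. The median over all 13 probes was -0.03, against 0.01 over all probes tested, and 95% of all probes lay between -0.63 and 0.54. The standard errors of the 13 probes had a median of 0.08, against 0.09 for all probes.

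Single arrays were low or high for several subunits at once. BTBR replicate 1 was the lowest BTBR array for 9 of the 13 probes, whereas it was lowest for 24.4% of all probes tested. BTBR replicate 3 was the highest for 7 of the 13, against 27.6% of all probes. Rpp25 went the other way, with its lowest BTBR value in replicate 3.

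The same arrays differed in marker genes. The summed level of 4 thalamic markers, on the log2 scale, was 16.07 in BTBR replicate 1, between 13.05 and 13.51 in the other BTBR arrays and between 12.58 and 13.50 in B6. That array also had the lowest summed level of 8 hippocampal neuron markers, 15.33, against a range from 15.68 to 16.68 over the other 7 arrays. All 8 hippocampal markers were well above background on all arrays. Of their 11 probes 10 were lower in BTBR, with a median difference of -0.59 and a range from -2.03 (Spink8) to 0.71 (Wfs1), and none was called by limma. The 8 thalamic probes tested were all higher in BTBR, by 0.50 to 1.22 with a median of 0.98, and none was called either. These medians compare with 0.01 over all probes. The 4 pituitary probes were also all higher in BTBR (median 0.82, highest 2.26), although 3 of them passed the filter on dim probes through BTBR alone. The 4 choroid plexus probes tested were higher too (median 0.30), and of the 4 meningeal probes tested 3 were higher (median 0.28), with none called in these lists. The summed level of blood markers was highest in BTBR replicate 3, with 17.60, against 15.22 to 16.25 on the others.

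The hippocampal marker sum was 15.33, 15.68, 16.68 and 16.38 in BTBR replicates 1 to 4, where Rpp25 read 10.61, 10.75, 10.19 and 10.50. The sums of the 4 B6 arrays lay between those of BTBR replicates 2 and 3. Because signals are summed before the log, bright genes weigh most in this sum. The brightest was Wfs1, with means of 14.33 in B6 and 15.04 in BTBR, and it alone was higher in BTBR. The other 10 of the 11 probes were lower in BTBR, so overlapping sums do not show that these markers were alike between the strains. Without BTBR replicate 1 the Rpp25 difference was -1.45, and the part of tissue makeup in it was not tested.

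**Figure D3:**
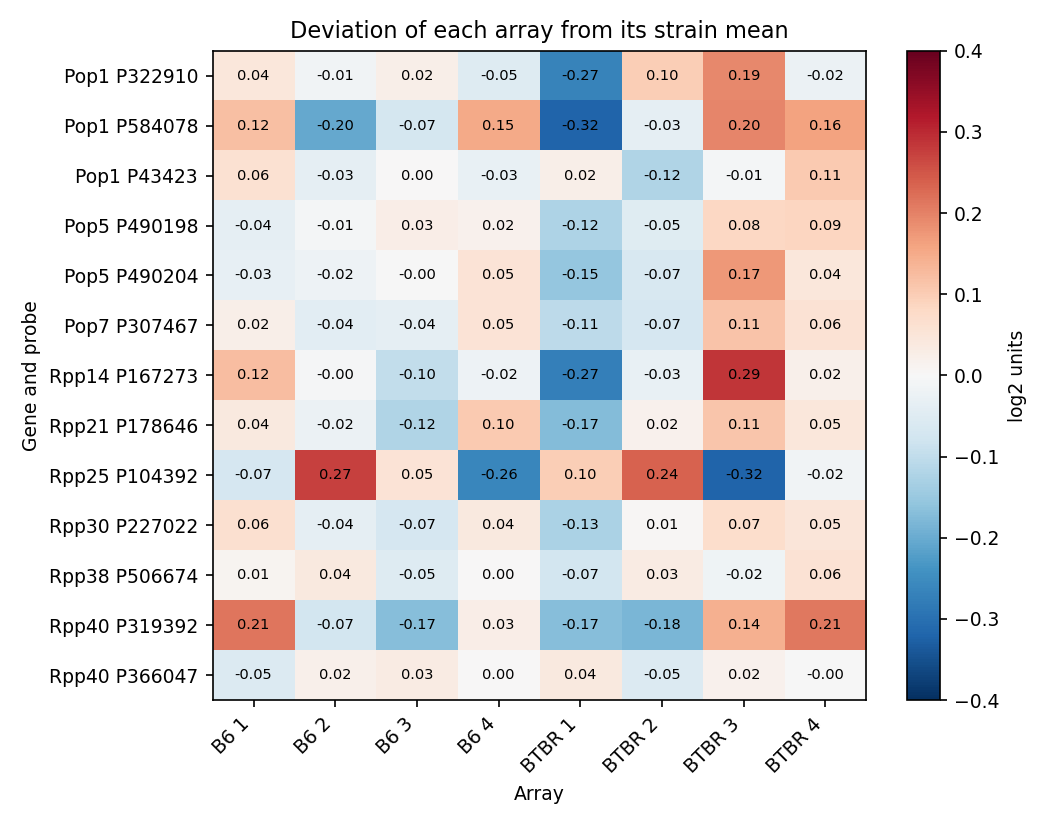
Deviation of each array (columns) from the mean of its strain for the 13 probes of the 9 genes other than Pop4 (rows), in log2 units, with blue below and red above the strain mean. BTBR replicate 1 is the lowest BTBR array in 9 rows and BTBR replicate 3 the highest in 7, and the Rpp25 row runs the other way in both.

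The enzymes that act with RNase P on tRNA were measured as a list of 20 genes, of which 19 had a probe. The gene that lacked a probe was that of the RNase P RNA, so this RNA was not measured. Of the 26 probes tested 1 was called (3.85%, against 7.60% of all probes tested). The median difference was 0.01, with 10 probes lower in BTBR, 16 higher and a range from -2.56 to 1.23. Both ends of this range come from probes that were not well above background on any array of a strain, so neither end is a measured size. The called probe was that of Zbtb8os, which encodes archease, a cofactor of the tRNA ligase complex, with 10.24 ± 0.22 in B6 and 7.69 ± 0.08 in BTBR (SD, n = 4 each). It was not well above background on any BTBR array, so that the fall is given as at least 5.88-fold lower, from the mean of the bright strain over the dim strain's mean of its own signal or the lowest signal above background. This probe passed the filter on dim probes through B6 alone, which favors a difference, so no p is given for it and nothing is read from its count.

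The other genes of the list did not pass the test. The highest difference was at a probe of Ssb, the La protein that binds the 3′ end of new tRNA precursors. It read 7.61 ± 0.10 in B6 and 8.84 ± 1.86 in BTBR (SD, n = 4 each), with a wide spread in BTBR. This probe was well above background on none of the B6 and 3 of the BTBR arrays. The B6 level is therefore a bound, and the BTBR mean is given as at least 2.24-fold higher. The probe passed the filter through BTBR alone, so no p is given for it. Elac2, which trims the 3′ end of tRNA precursors, had differences of 0.04 and -0.03 at its probes (limma adjusted p = 0.84 and 0.86). Rtcb, the ligase itself, had 0.09 (limma adjusted p = 0.66), and Xpot, the tRNA exporter, had -0.25 and 0.01 (limma adjusted p = 0.13 and 0.96). Mitochondria use a separate RNase P made of proteins alone, and the probes of its subunits Hsd17b10, Trmt10c and Prorp had differences of 0.0019, -0.01 and 0.03 (limma adjusted p = 0.995, 0.95 and 0.84).

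Ribosomal RNA processing, the pathway of RNase MRP, was read from another 20 genes with 32 tested probes. Again 1 probe was called (3.12%, against 7.60% of all probes tested), and the median difference was -0.04, with 24 probes lower in BTBR, 8 higher and a range from -0.31 to 0.35. The lowest was a probe of Nop56, a core protein of box C/D ribonucleoproteins, at -0.31 with arrays of the strains that did not overlap, and the other Nop56 probe gave -0.26 (limma adjusted p = 0.11 and 0.33). The called probe was one of 2 for Exosc10, a nuclease of the nuclear exosome, with 11.08 ± 0.04 in B6 and 11.43 ± 0.09 in BTBR (SD, n = 4 each), so that it rose by 0.35 (standard error 0.06, limma adjusted p = 0.0099). Its other probe gave -0.12 (limma adjusted p = 0.44), so the direction differed between the probes of that gene. Rmrp, the RNA around which RNase MRP is built, had a difference of -0.06 with a standard error of 0.11 (limma adjusted p = 0.84).

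Position in the genome was not used to choose the genes. Within 1 Mb of the Pop4 probes 10 probes of 5 gene names were tested, and 3 were called, 2 lower and 1 higher in BTBR, where 7.60% of all probes tested were called. All 10 lay on the side of lower coordinates. The 2 called genes were 1600014C10Rik and Ccne1, which encodes cyclin E1.

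For 1600014C10Rik the 3 probes gave 0.75 (limma adjusted p = 4.77e-04), -0.61 (limma adjusted p = 4.80e-04) and -0.40 (limma adjusted p = 0.0501), that is, opposite directions within one gene. Ccne1 had -0.37 (limma adjusted p = 0.0371) and -0.21 (limma adjusted p = 0.11). Around Rpp25 59 probes of 40 gene names were tested and 0 were called. The median difference was 0.05 around Rpp25, -0.20 around Pop4, and between -0.02 and 0.06 around the other 8 genes. For the other 8 genes the called shares ran from 0 of 69 near Pop5 to 10 of 72 near Pop7 and 2 of 13 near Rpp40, against the same 7.60%.

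**Figure D4:**
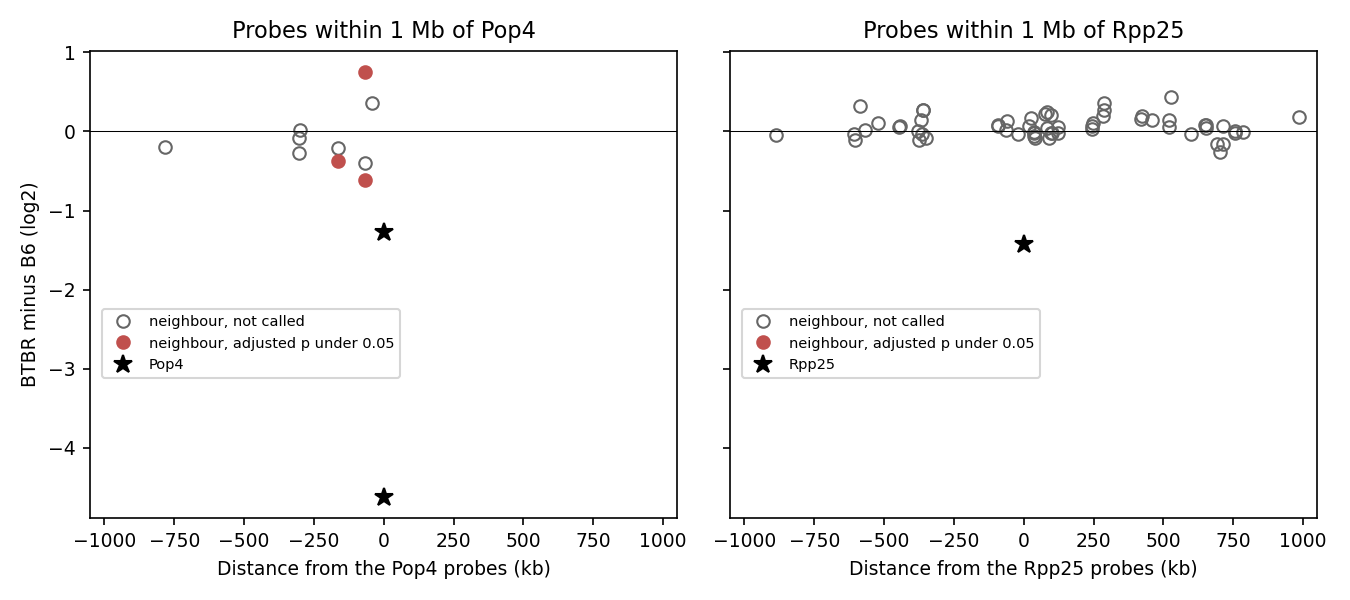
BTBR minus B6 difference (y axis, log2) of probes within 1 Mb of Pop4 (left) and Rpp25 (right) against distance in kb (x axis), with filled red circles for probes with limma adjusted p under 0.05 and stars for the subunit probes themselves. Near Pop4 3 of 10 neighbors are called, in both directions, and near Rpp25 0 of 59.

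The probes whose levels followed the Pop4 probe A_52_P206492 most closely over the 8 arrays were those of Pnpla8, Rpl14, Zfp874a, the transcript cluster TC1683126 and Rlbp1. Their Pearson correlations with it ran from 0.99895 (Rlbp1) to 0.99965 (Pnpla8), and their differences ran from -3.67 (Rpl14) to -2.08 (TC1683126). These correlations over 8 points mainly carry the gap between the strains, so that only a probe with a gap of that kind could be among the 5.

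The size of the difference at the Pop4 probe A_52_P206492 depended on how the signal was processed. The A_52_P206492 difference was -5.84 from the processed signal of the scanner software, -4.37 with normexp background correction and -4.15 in the deposited matrix. At A_51_P125117 the same 3 settings gave -1.34, -1.23 and -1.22. Over 21 alternatives Rpp25 lay between -1.55 and -1.31, with limma adjusted p from 1.67e-04 to 0.00494, and it was called in each. Taking 1 median per gene name merged both Pop4 probes into a single value of -2.94.

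**Figure D5:**
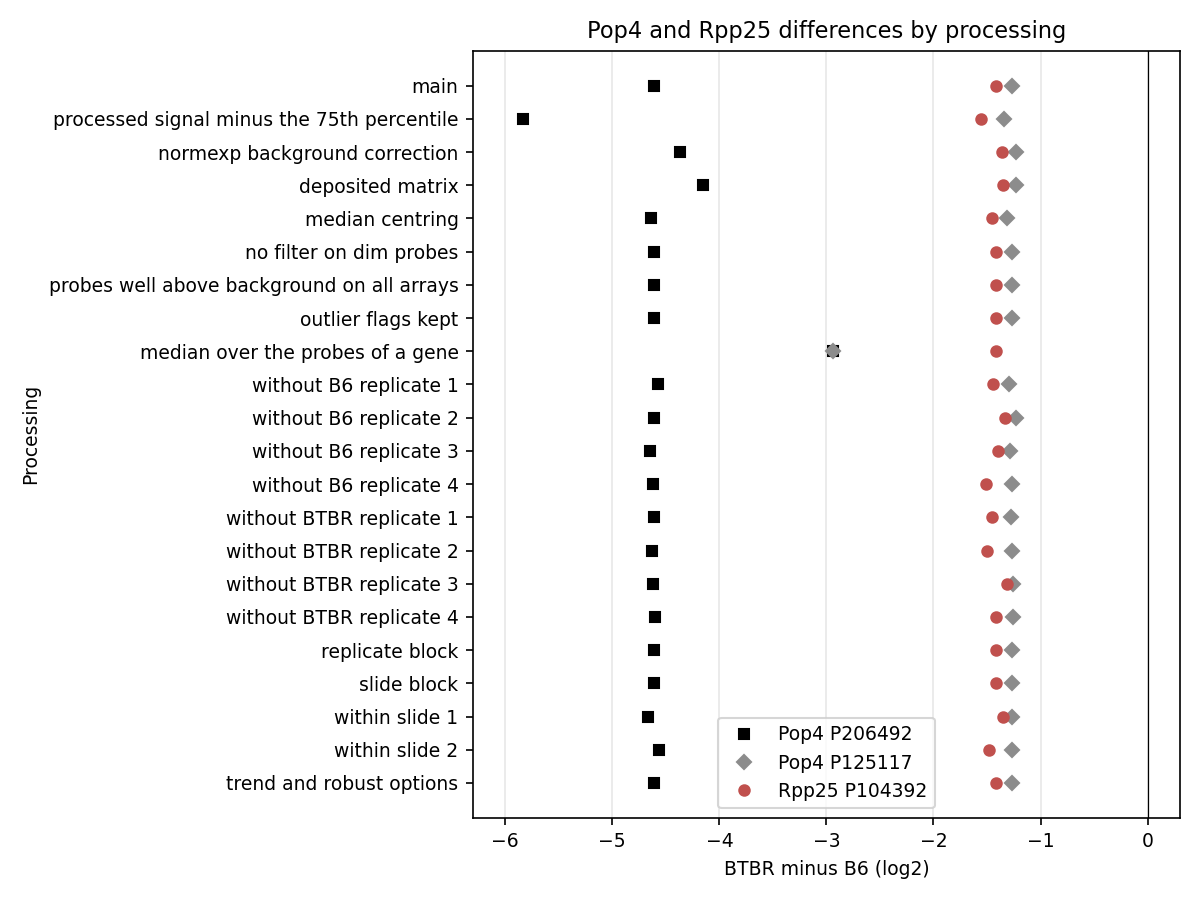
BTBR minus B6 difference (x axis, log2) of both Pop4 probes and the Rpp25 probe under the processing used and each alternative (y axis). Rpp25 stays between -1.55 and -1.31, and A_52_P206492 ranges from -5.84 to -2.94, the latter where both Pop4 probes are merged.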

How the data were processed

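Hippocampal RNA of 4 BTBR and 4 B6 mice was hybridized, labeled with Cy3, to 8 one-color arrays with 45018 spots each. The authors deposited the intensity of each spot and of its local background, read with version 10.7.3.1 of Agilent Feature Extraction as the file headers give it. The log2 values of the deposited matrix had been background subtracted and quantile normalized by the authors, and were used as an alternative. Here each spot's mean intensity minus its local background was floored at 0.5, raised by 50, put on the log2 scale and quantile normalized. Left out were control probes, 154 probes with outlier flags, and probes not well above background on at least 3 of 4 arrays of either strain, which left 27999 probes. Between 56.9% and 71.9% of spots were well above background per array, and none was saturated. The number of arrays limits the precision.

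Limma 3.58.1 in R 4.3.3 fitted strain alone over all probes, with Benjamini-Hochberg adjusted p under 0.05 called. The rank product was written out with 100 permutations of probes, and a pfp up to 0.05 was called. Both were tested on simulated data. Single probes were compared by exact two-sided permutation of the arrays. Each summed marker level is the log2 of the summed signals of the list. Genes named are the 10 subunits, at most the 4 called genes per pathway list and the 5 per neighborhood with the smallest p, and the 5 probes most like Pop4. Further list members (Rpp25l, Elac2, Rtcb, Xpot, Hsd17b10, Trmt10c, Prorp, Ssb, Rmrp, Nop56) and the outermost hippocampal markers (Spink8, Wfs1) were picked for naming with their values in view. The subunits, lists and tests were chosen with earlier results of these data known. Coordinates and probe annotations are those of the array files (mm9), and 11 of the 15 probes carry a RefSeq accession, all 11 under the same symbol in RefSeq. Exon or UTR position was not looked up. Alternatives were other background corrections, the deposited matrix, median centring, other filters, 1 median per gene name, leaving out each array, replicate number or slide as a block, each slide alone, trend and robust options, and a threshold of 0.01.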

Additional observations from a re-analysis of the deposited data

How the results depend on the processing

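Among the 9 genes other than Pop4, limma called 1 probe under each of 22 alternatives and the rank product 1 under each of 17, and with limma it was Rpp25 each time. Over all probes limma called 1034 (633 lower) within slide 2 alone and 2421 (1400 lower) within slide 1 alone, against 2129 (1204 lower) with both, and the cause was not tested. It called 1196 (741 lower) at a threshold of 0.01, and the rank product called 587 at 0.01. With each array left out in turn limma called 1534 to 2183 probes (912 to 1224 lower), the rank product 771 to 1005, and 1 of the 13 subunit probes by either method. The Pop4 difference at A_52_P206492 was -5.84 with the processed signal, -4.37 with normexp, -4.15 in the deposited matrix and -2.94 as a gene median, and -4.65 to -4.58 with an array left out. At A_51_P125117 it was -2.94 as a gene median and -1.29 to -1.23 with an array left out.

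Several differences near 0 changed sign, none of them called, and the cause was not tested. For Pop7 these were -0.018 with the processed signal, -0.049 with median centring and -0.069 within slide 1. For Pop5 A_51_P490204 they were -0.031 with median centring and -0.056 within slide 1, and for Rpp40 A_52_P366047 -0.0052 as a gene median. Within slide 2 the signs turned for Pop1 A_51_P322910 (0.069), Pop1 A_52_P584078 (0.014), Rpp14 (0.095), Rpp21 (0.056), Rpp38 (0.025) and Rpp40 A_51_P319392 (0.17). Within slide 1 the same probes gave, in that order, -0.13, -0.26, -0.33, -0.12, -0.065 and -0.32, so the slides differed most for Rpp14 and Rpp40 A_51_P319392. With an array left out Pop1 A_51_P322910 ran from -0.096 to 0.058, Pop5 A_51_P490204 from -0.031 to 0.078, Pop7 from -0.029 to 0.045, Rpp21 from -0.071 to 0.028 and Rpp38 from -0.040 to 0.0044.

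Same-numbered replicates of both strains share a slide, and the labels name no other link between them. Their deviations from the strain means correlated at -0.14, 0.51, -0.10 and 0.39 for numbers 1 to 4, and only numbers 2 and 4 were each other's best match, so they were not treated as pairs. With replicate number as a block limma called 1 of the 13 subunit probes and 1650 of all probes.

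These data hold 1 RNA extract per mouse and 4 mice per strain. Rpp25 rests on a single probe, and 6 of the 10 genes have only 1. The 15 subunit probes were above background on all arrays, and the limits are the number of arrays, the match of the probes to BTBR sequence, which was not examined, and the tissue makeup of the samples, whose part was not tested.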
